A study of Mus musculus with 10 samples.

Results

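The 46 genes described here encode the protein kinases that drive entry into mitosis, the spindle checkpoint, the kinetochore, the spindle motors and the proteins of cytokinesis. They were chosen by name from these functions, and each was read from the array feature that the platform annotation maps to that gene alone. Of the 46, 45 had such a feature among the 34760 features of the deposited values, and 44 passed the filter on low values and were tested. Ccnb1, the cyclin B1 gene, is not listed under its own symbol alone in the annotation used here and has no value. Kif4, a chromosome-bound kinesin motor, lay below the filter and is given as values only.

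Bone marrow derived macrophages (BMDMs) were cultured from male C57BL mice, 5 wild type (WT) and 5 lacking the small GTPase Rac2 (Rac2-/-). All 10 cultures received 50 ng/ml macrophage colony stimulating factor (MCSF) for 7 days in medium with 20% fetal bovine serum at 16% oxygen, with no other treatment, and RNA was taken at 8 days, when more than 80% of the adherent cells carried the macrophage antigen Mac1 by the labels. RNA of each culture was read on 1 Affymetrix mouse whole-transcript array. The comparison asks which genes differ in level between WT and Rac2-/- macrophages.

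MCSF is the growth factor that carries macrophage progenitors through division and keeps macrophages alive, and cultured macrophages leave the cell cycle as they mature. Most mitotic genes are repressed in resting cells and are transcribed late in the cycle, in G2 and mitosis, so that their transcripts mark dividing cells. Cdk1 with cyclins A2 and B starts mitosis, the checkpoint kinases hold chromosome separation until every kinetochore is attached to the spindle, and the centralspindlin complex with anillin divides the cell.

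The arrays fell into sets, which bear on every value below. Arrays 1 and 2 of both genotypes stood apart from arrays 3 to 5, with correlations over all features of 0.974 to 0.996 within sets and 0.934 to 0.955 between them. The labels do not name a batch. Within a genotype WT arrays 3 and 4 were the closest pair, with a median absolute difference of 0.0817 log2 units, and no 2 arrays were identical. Rac2 itself read 11.8 to 12.4 in WT and 6.80 to 7.54 in Rac2-/- arrays, so every array matched its label. The macrophage markers Csf1r and Adgre1 read above 12 in every array. Nothing in the labels says whether the 5 arrays of a group came from separate animals beyond the count of mice in the design, and the p-values speak only of how far these arrays scatter, which may be partly technical.

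Promoter letters come first, because the genes share them although they were not chosen by sequence. RefSeq promoters (GRCm38.p6, 250 bases before to 50 after the start) were at hand for 38 of the 46 genes, 44 promoters in all. Those of Ccna2, Cdc25c, Aurkb, Spc24, Incenp, Kif20a, Tpx2 and Smc4 were not used here. The sequences are the 150 bases before the start on the gene's own strand, 5′ to 3′, with 2 elements in capitals where they occur: the CCAAT box, which reads ATTGG on the opposite strand, and the cell cycle genes homology region. The latter was searched as TTTGAA, as its reverse complement TTCAAA, and as the palindrome spelled TTCGAA. Cdk1, Cdc20 and Kif11 are shown because both elements lie before the start. Ccnb2 and Cenpa are shown because their values lead the results below, and Clip1 because its values ran the other way.
Cdk1: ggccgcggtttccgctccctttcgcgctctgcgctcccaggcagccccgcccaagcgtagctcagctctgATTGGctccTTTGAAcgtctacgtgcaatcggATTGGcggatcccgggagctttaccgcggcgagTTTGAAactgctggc
Cdc20: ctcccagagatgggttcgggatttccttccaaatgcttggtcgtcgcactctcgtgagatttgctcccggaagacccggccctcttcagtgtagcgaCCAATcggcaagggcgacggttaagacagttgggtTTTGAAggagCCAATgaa
Kif11: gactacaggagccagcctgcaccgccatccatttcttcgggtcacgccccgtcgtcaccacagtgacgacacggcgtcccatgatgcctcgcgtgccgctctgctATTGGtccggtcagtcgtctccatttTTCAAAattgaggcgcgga
Ccnb2: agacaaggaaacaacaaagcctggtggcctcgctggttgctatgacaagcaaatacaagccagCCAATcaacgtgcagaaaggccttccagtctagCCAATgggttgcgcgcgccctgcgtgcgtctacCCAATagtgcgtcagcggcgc
Cenpa: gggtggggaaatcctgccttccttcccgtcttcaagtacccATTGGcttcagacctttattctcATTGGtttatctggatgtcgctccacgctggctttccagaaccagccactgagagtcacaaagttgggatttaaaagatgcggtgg
Clip1: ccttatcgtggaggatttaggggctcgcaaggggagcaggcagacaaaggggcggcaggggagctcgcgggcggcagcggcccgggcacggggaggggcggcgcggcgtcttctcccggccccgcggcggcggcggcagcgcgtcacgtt

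These stretches lie at chr10:69352913-69353062 (minus strand) for Cdk1, chr4:118437344-118437493 (minus) for Cdc20, chr19:37376232-37376381 (plus) for Kif11, chr9:70421555-70421704 (minus) for Ccnb2, chr5:30666736-30666885 (plus) for Cenpa and chr5:123684362-123684511 (minus) for Clip1. Cdk1 carries the CCAAT box 2 times and TTTGAA 2 times in the stretch shown, and Ccnb2 carries the CCAAT box 3 times. Outside the bases shown, TTTGAA begins 4 bases after the start in Ccnb2 and 16 bases after it in Cenpa. Over the whole windows of 300 bases, a CCAAT box was found in 34 of the 44 promoters (77.3%), against 37.4% of all 32851 promoters of the table. The homology region letters were found in 31 of 44 (70.5%), against 19.2% of all. Both together were found in 28 (63.6%), against 7.52% of all. Letters of the E2F site (searched as TTCCCGC, whose reverse complement is GCGGGAA, and in a second form as TTGGCGC, whose reverse complement is GCGCCAA) were found in 9 of 44 (20.5%), against 6.81%. For comparison, DNA replication genes held the E2F letters in 21 of 40 promoters (52.5%) and both other elements together in 5 (12.5%). These shares are descriptions of letters in a window and say nothing of binding.

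The widest values of these genes came from 1 Rac2-/- culture, replicate 5. In Rac2-/- array 5 the 45 genes read a median of 2.50 log2 units above their WT means, and 44 of the 45 were above. In the other 9 arrays that median lay between -0.17, in WT array 2, and 0.26, in Rac2-/- array 3. Rac2-/- array 5 was the highest of all 10 arrays for 43 of the 45 genes, against 11.0% of the features tested, and it exceeded the other 9 by at least 1 log2 unit for 40 of 45, against 0.832%. The genes below 1 unit were Spc24, Incenp, Smc4, Clasp2 and Clip1. An array reads a whole culture, so more dividing cells and more RNA per dividing cell cannot be told apart.

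**Figure D1:**
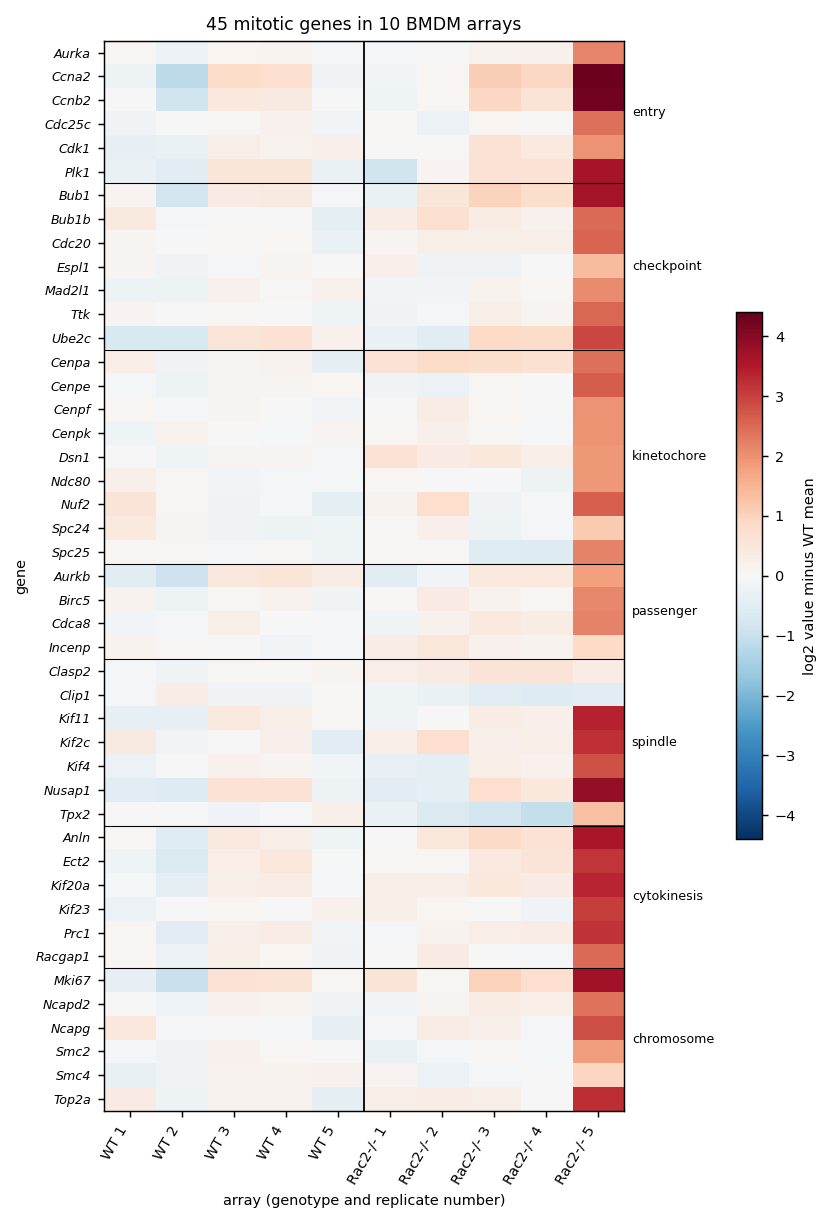
Log2 value minus the mean of the 5 WT arrays for the 45 genes with a feature (rows, ordered by role) in the 10 arrays (columns), on a symmetric colour scale. Rac2-/- array 5, the last column, is red for 44 of the 45 genes, and Clip1 is the gene below its WT mean there.

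The excess of array 5 over the median of Rac2-/- arrays 1 to 4 had a median of 2.37 log2 units over the 45 genes, with a range of -0.14 to 3.92. Over all features tested its median was -0.01. It was at least 2 units for 29 of the 45 genes, against 0.462% of the features tested, and at least 3 units for 9, against 0.0851%. When the features were ordered by this excess, 17 of the 45 genes were among the first 50, 24 among the first 100 and 37 among the first 200. The largest excesses were those of Ccnb2, cyclin B2, at 15.1-fold, Nusap1, a spindle-associated protein, at 14.5-fold, and Ccna2, cyclin A2, at 14.0-fold.

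**Figure D2:**
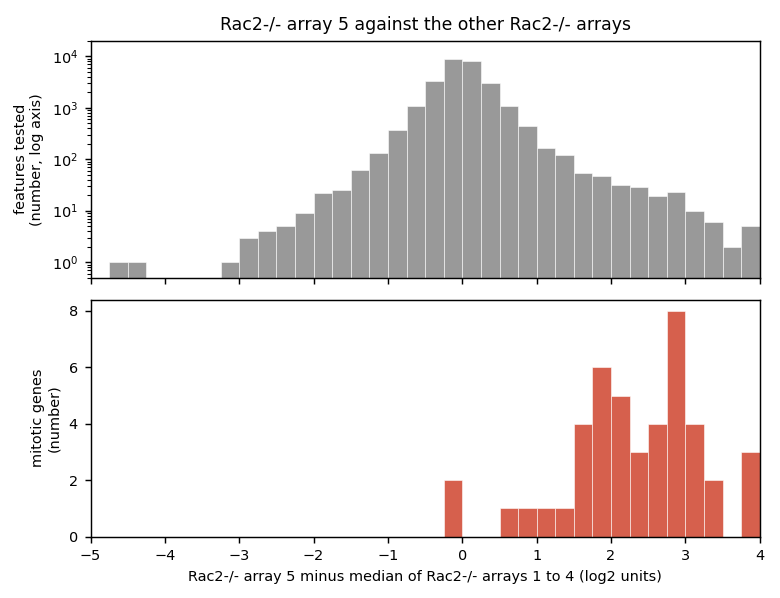
Number of features tested (top, log axis) and of the 45 mitotic genes (bottom) by the value of Rac2-/- array 5 minus the median of Rac2-/- arrays 1 to 4, in bins of 0.25 log2 units. The features centre on -0.01 and the mitotic genes on 2.37, with Clasp2 and Clip1 alone just below 0.

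By role, the excess of array 5 was highest for the 6 genes of the central spindle and cytokinesis, with a median of 2.97 and a narrow range from 2.51 in Racgap1 to 3.06 in Kif20a. The 7 spindle motors and microtubule-binding proteins had a median of 2.86, but ranged from -0.14 in Clasp2 to 3.86 in Nusap1. The 6 mitotic entry genes had a median of 2.82, from 1.73 in Cdk1 to 3.92 in Ccnb2. Chromosome structure and condensin genes had a median of 2.48 and the checkpoint genes 2.32. The 9 centromere and kinetochore genes had a median of 1.90, from 1.16 in Spc24 to 2.76 in Cenpe, and the 4 chromosomal passenger genes 1.78, from 0.63 in Incenp to 1.99 in Birc5, survivin. These medians are descriptions of 1 culture and carry no error between cultures.

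Across genotypes, 42 of the 44 genes tested had the higher mean in Rac2-/-, against 49.9% of all features tested, and the median difference (WT minus Rac2-/-) was -0.61 log2 units, against 0.00034 for all features. With Rac2-/- array 5 left out, 34 of the 44 had the higher mean in Rac2-/-, against 50.1%, and the median was -0.14. Within arrays 1 and 2 the median difference was -0.20, and within arrays 3 to 5, which hold Rac2-/- array 5, it was -0.89. In limma with Benjamini-Hochberg adjustment over all features tested, 1 of the 44 genes passed at an adjusted p under 0.05 with all 10 arrays (Clasp2, higher in Rac2-/-), against 1.90% of all features. Another 1 of 44 passed without array 5 (Cenpa, higher in Rac2-/-), against 1.76%. A share of 1 in 44 is near those backgrounds. With an unadjusted p under 0.05 there were 5 of 44 genes with all arrays, against 10.4% of all features, and 8 of 44 without array 5, against 9.70%.

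**Figure D3:**
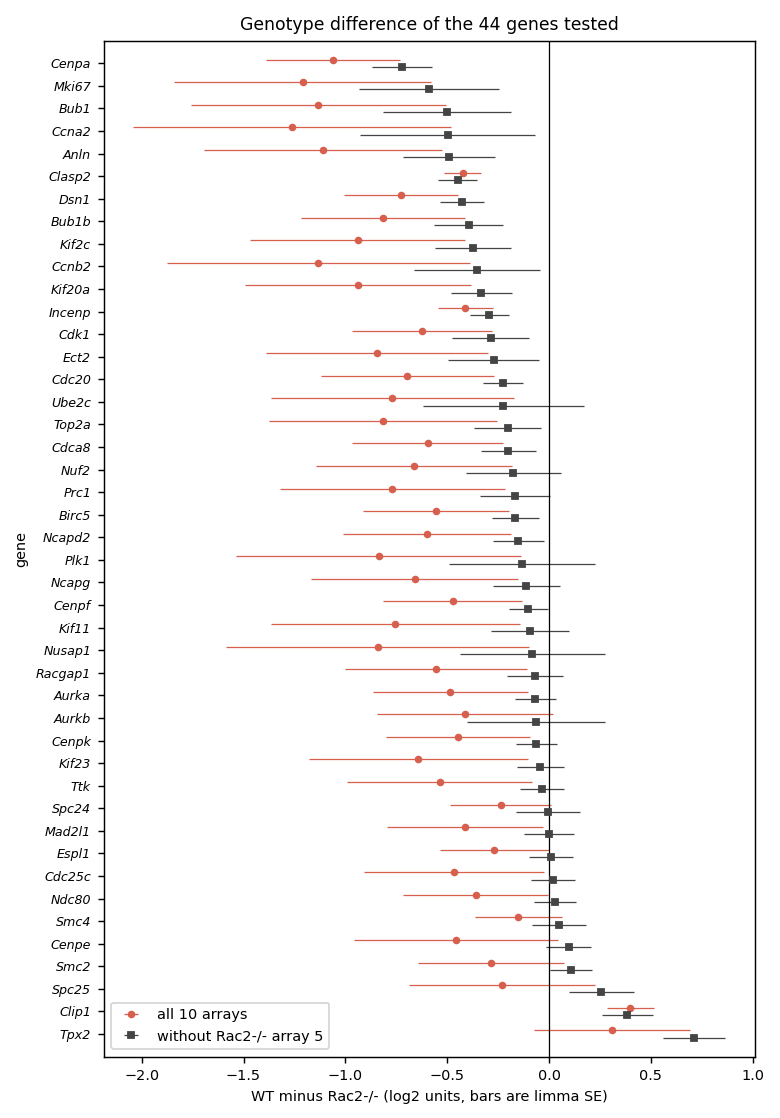
WT minus Rac2-/- difference in log2 units with its limma standard error for the 44 genes tested, with all 10 arrays (circles) and without Rac2-/- array 5 (squares), ordered by the latter. Points left of 0 are higher in Rac2-/-, with all arrays 42 genes and without array 5 34 genes.

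The groups did not overlap for 5 of the 44 genes with all arrays, against 4.52% of the features tested. Cenpa, Dsn1, Incenp and Clasp2 read higher in every Rac2-/- array than in any WT array, and Clip1 read lower. Without array 5 there were 6 such genes, against 5.73%, Tpx2 being the sixth, with every Rac2-/- array below every WT array. Arrays of the same number deviated together about as much as arrays of other numbers in the same set. With the replicate number as a block 2 of the 44 genes passed, Clasp2 and Clip1, against 6.35%. Without array 5 and with a term for the array sets, 7 of the 44 passed, against 9.42% of all features: Cdk1, Cenpa, Dsn1, Incenp and Clasp2 higher in Rac2-/-, and Tpx2 and Clip1 higher in WT. Whether the genotype difference itself differed between arrays 1 to 2 and arrays 3 to 5 was tested by an interaction term in limma, which no gene passed (0 of 44 adjusted, against 0.00% of all features, and 0 of 44 at an unadjusted p under 0.05, against 5.77%). That fit holds Rac2-/- array 5, and its standard errors were wide, at 1.06 for Mki67 and 1.27 for Ccna2. It therefore does not show that the difference was alike in both sets.

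Cdk1 is the kinase that starts mitosis. Its WT arrays 1 to 5 read 8.05, 8.13, 8.68, 8.56 and 8.65, and its Rac2-/- arrays 8.42, 8.47, 9.06, 8.84 and 10.39. Within each array set every Rac2-/- array was above every WT array. The groups still overlapped, because arrays 1 and 2 of both genotypes read lower than arrays 3 to 5. The difference was -0.62 ± 0.34 (limma SE, 5 against 5 arrays, adjusted p = 0.656), and without array 5 -0.29 ± 0.19 (adjusted p = 0.824). With the array sets as a term and without array 5 it was -0.34 ± 0.06 (adjusted p = 0.0121).

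Ccna2, whose product is the cyclin of S phase and mitotic entry, had the largest mean difference among the genes tested. It read 6.70, 5.75, 7.72, 7.64 and 6.75 in WT arrays 1 to 5 and 6.78, 7.01, 8.01, 7.83 and 11.23 in Rac2-/-. Array 5 stood more than 3 log2 units above every other array, and the remaining Rac2-/- values lay inside or just above the WT range. The difference of -1.26 ± 0.78 (limma adjusted p = 0.745) became -0.50 ± 0.43 without array 5 (adjusted p = 0.940).

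Ccnb2, which with Cdk1 forms a mitotic kinase, showed the widest gap and is given for that reason, after its values were seen. It read 7.41, 6.51, 7.85, 7.78 and 7.40 in WT and 7.22, 7.46, 8.31, 7.99 and 11.64 in Rac2-/-. Outside array 5, arrays 3 and 4 of each genotype read highest. Plk1 and Aurka, kinases of mitotic entry and of the spindle poles, read 10.43 and 9.12 in array 5 against at most 7.43 and 7.15 elsewhere. Cdc25c, the phosphatase that activates Cdk1, read 7.11 in array 5 and 4.43 to 4.89 in the other 9 arrays.

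Among the spindle checkpoint genes, Bub1 encodes the kinetochore kinase at the base of the checkpoint. It read 6.29, 5.32, 6.53, 6.57 and 6.07 in WT and 5.88, 6.70, 7.13, 6.92 and 9.81 in Rac2-/-. Rac2-/- array 1 lay inside the WT range, arrays 2 to 4 just above it, and array 5 far above. The difference was -1.13 ± 0.62 (limma adjusted p = 0.658), and -0.50 ± 0.31 without array 5 (adjusted p = 0.797).

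Bub1b, which encodes the checkpoint protein BubR1, read 7.34, 6.87, 6.94, 6.90 and 6.50 in WT and 7.25, 7.62, 7.24, 7.10 and 9.41 in Rac2-/-. WT array 1 was the 1 WT array that reached into the Rac2-/- range. The difference was -0.82 ± 0.40 (limma adjusted p = 0.563), and -0.39 ± 0.17 without array 5 (adjusted p = 0.481). Mad2l1 and Ttk of the checkpoint, Cdc20, the activator it holds back, and Espl1, separase, were 1.45 to 2.53 log2 units higher in array 5 than the median of Rac2-/- arrays 1 to 4, and without it their differences were between -0.23 and 0.01.

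Cenpa encodes the variant of histone H3 that marks the centromere, and it was higher in Rac2-/- with and without array 5. Its feature (10520521) read 7.82, 7.36, 7.61, 7.67 and 7.09 in WT and 8.15, 8.32, 8.28, 8.18 and 9.93 in Rac2-/-. All 5 Rac2-/- arrays lay above all 5 WT arrays, and Rac2-/- arrays 1 to 4 lay closer together than the WT arrays. With all arrays the difference was -1.06 ± 0.33 (limma adjusted p = 0.186), a 2.09-fold higher mean in Rac2-/-. Without array 5 it was -0.72 ± 0.15 (adjusted p = 0.0458), a 1.65-fold higher mean. That call was lost, and no gene passed without array 5, with no filter, with a trended robust variance and with arrays 3 and 4 averaged. Within arrays 1 and 2 the difference was -0.65.

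Dsn1, a subunit of the Mis12 complex that links centromere and outer kinetochore, is named after its values were seen. It read 6.34, 6.16, 6.48, 6.47 and 6.30 in WT and 7.00, 6.70, 6.81, 6.61 and 8.26 in Rac2-/-. Here too no Rac2-/- array reached down to the WT range. The difference was -0.73 ± 0.28 (limma adjusted p = 0.346), and -0.43 ± 0.11 without array 5 (adjusted p = 0.107). The 4 measured subunits of the Ndc80 complex, which binds microtubules, gave -0.36 for Ndc80, -0.66 for Nuf2, -0.24 for Spc24 and -0.23 for Spc25 with all arrays, and 0.03, -0.17, -0.01 and 0.26 without array 5. None of the 4 passed the test in either fit.

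The chromosomal passenger complex corrects faulty attachments and acts again in cytokinesis. Incenp, its scaffold, read 8.55, 8.43, 8.37, 8.28 and 8.32 in WT and 8.72, 8.88, 8.57, 8.56 and 9.27 in Rac2-/-. The groups were separated by a narrow margin, and array 5 stood 0.39 above the next array, the smallest such gap among the 43 genes that were highest there. The difference was -0.41 ± 0.14 (limma adjusted p = 0.236), and -0.29 ± 0.10 without array 5 (adjusted p = 0.273).

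Cdca8, borealin, read 6.26, 6.28, 6.64, 6.34 and 6.31 in WT and 6.22, 6.56, 6.79, 6.69 and 8.54 in Rac2-/-. Rac2-/- array 1 was below every WT array and array 5 far above all. The difference was -0.60 ± 0.37 (limma adjusted p = 0.747), and -0.20 ± 0.13 without array 5 (adjusted p = 0.833). Aurkb, the kinase of the complex, read 7.92 to 8.72 in arrays 1 and 2 of both groups and 9.14 to 9.36 in arrays 3 to 5 other than Rac2-/- array 5, which read 10.62.

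**Figure D4:**
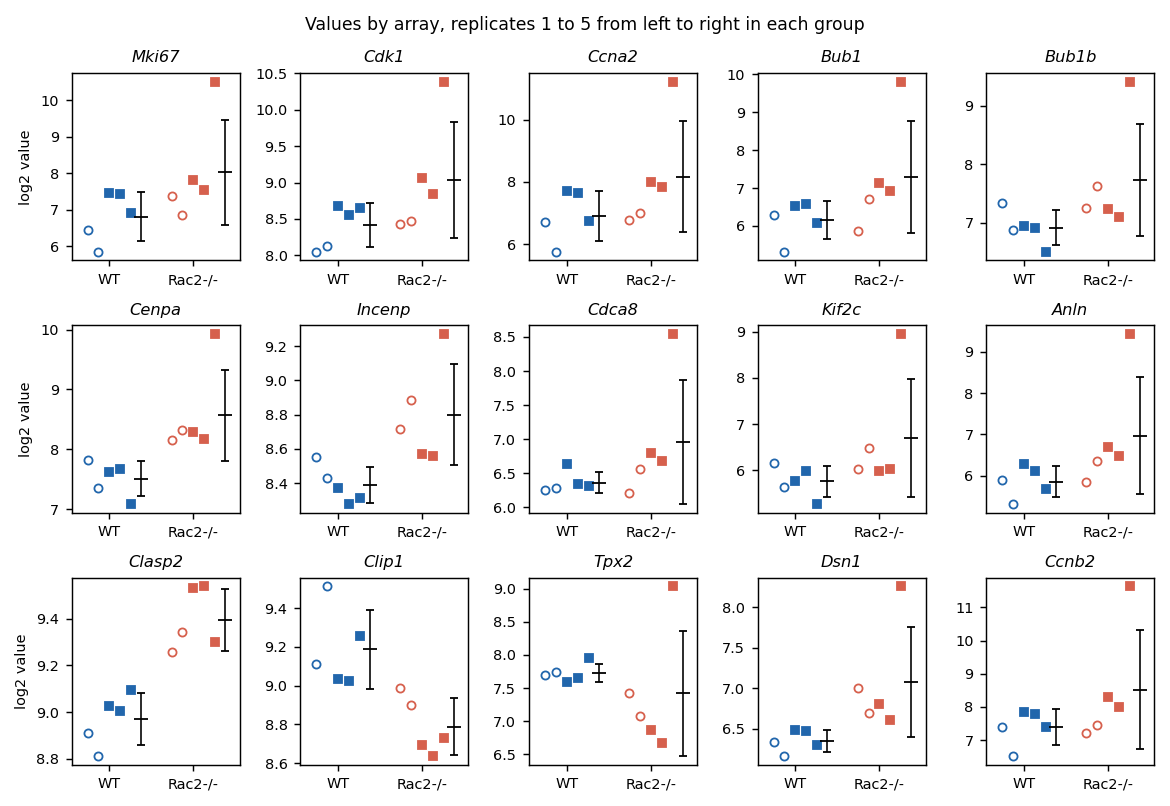
Log2 values of 15 genes by array. In each group replicates 1 to 5 run from left to right, open circles are arrays 1 and 2, filled squares are arrays 3 to 5, and the black bar beside them is the mean ± SD of 5 arrays. Rac2-/- array 5 is the highest point in every panel except Clasp2 and Clip1.

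Clasp2, Clip1 and Tpx2 bind microtubules. Clasp2 and Clip1 lacked the excess of array 5, while Tpx2 had it but read low in the other Rac2-/- arrays. Clasp2 (feature 10589800), which stabilises microtubule plus ends and also acts in cells that do not divide, read 8.91, 8.81, 9.02, 9.01 and 9.10 in WT and 9.26, 9.34, 9.53, 9.54 and 9.30 in Rac2-/-. The groups did not overlap, and array 5 was among the lower Rac2-/- values. Its difference of -0.42 ± 0.09 (limma adjusted p = 0.0429), a 1.34-fold higher mean in Rac2-/-, was the 1 call with all arrays. The call was narrow: when each array was left out in turn the adjusted p ran from 0.0368 to 0.115 and stayed under 0.05 for 1 of the 10, Rac2-/- array 1. With the replicate block the adjusted p was 0.0228. Clasp2 has 3 promoters in the table, and which of them is used in these cells was not tested.

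Clip1 (feature 10533659), the plus-end linker CLIP-170, had the higher mean in WT, with 9.11, 9.51, 9.04, 9.02 and 9.26 in WT and 8.99, 8.90, 8.69, 8.64 and 8.73 in Rac2-/-. The lowest WT array was above the highest Rac2-/- array, by a narrow margin. The difference was 0.40 ± 0.12 (limma adjusted p = 0.149, and 0.0407 with the replicate block), a 1.32-fold higher mean in WT, and without array 5 it was 0.38 ± 0.13 (adjusted p = 0.265).

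Tpx2, which activates Aurora A and nucleates spindle microtubules, is named after its values were seen. Its feature (10477187) read 7.70, 7.74, 7.59, 7.64 and 7.95 in WT and 7.42, 7.08, 6.87, 6.67 and 9.04 in Rac2-/-. Rac2-/- arrays 1 to 4 all lay below the WT arrays while array 5 lay above them, so that the sign of single arrays differed within the genotype. The difference was 0.31 ± 0.38 with all arrays (limma adjusted p = 0.985) and 0.71 ± 0.15 without array 5 (adjusted p = 0.0555).

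Among the motors, Kif2c, a kinesin that takes microtubules apart at the centromere, read 6.15, 5.64, 5.76, 5.97 and 5.26 in WT and 6.03, 6.48, 5.98, 6.02 and 8.96 in Rac2-/-. The other 4 Rac2-/- arrays overlapped the upper WT values. The difference was -0.94 ± 0.53 (limma adjusted p = 0.674), and -0.37 ± 0.19 without array 5 (adjusted p = 0.613). Kif11, the motor that pushes the spindle poles apart, read 10.16 in array 5 and 6.39 to 7.18 elsewhere. Kif4, below the filter, read 4.17, 4.44, 4.61, 4.55 and 4.31 in WT and 4.08, 4.01, 4.67, 4.61 and 7.21 in Rac2-/-. Array 5 was the 1 array above 4.67.

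Anln, anillin, the scaffold of the contractile ring, read 5.90, 5.31, 6.29, 6.10 and 5.68 in WT and 5.85, 6.35, 6.70, 6.49 and 9.43 in Rac2-/-. The Rac2-/- arrays 2 to 4 were just above the WT range and array 1 within it. The difference was -1.11 ± 0.58 (limma adjusted p = 0.621), and -0.49 ± 0.23 without array 5 (adjusted p = 0.547). All 6 genes of the central spindle and cytokinesis (Anln, Ect2, Kif20a, Kif23, Prc1 and Racgap1) had the higher mean in Rac2-/- in both fits, with differences of -1.11 to -0.56 with all arrays and -0.49 to -0.04 without array 5, and none passed the test.

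Mki67, the proliferation antigen Ki-67 that coats mitotic chromosomes, read 6.45, 5.85, 7.45, 7.42 and 6.90 in WT and 7.38, 6.85, 7.82, 7.55 and 10.51 in Rac2-/-. Within each array set every Rac2-/- array was above every WT array, though the groups overlapped. The difference was -1.21 ± 0.63 (limma adjusted p = 0.615), and -0.59 ± 0.34 without array 5 (adjusted p = 0.751). Top2a, the topoisomerase that untangles sister chromosomes, read 10.32 in array 5 and 6.64 to 7.41 elsewhere. Smc4, the condensin subunit shared by both condensins, had the smallest excess of its role, at 0.99.

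Outside array 5 these genes varied little. The SD over the 5 WT arrays had a median of 0.21 log2 units, from 0.10 in Cenpf to 0.81 in Ccna2, and over Rac2-/- arrays 1 to 4 a median of 0.19, from 0.06 in Cdc20 to 0.71 in Plk1. With array 5 included the Rac2-/- SD had a median of 1.10, from 0.13 in Clasp2 to 1.80 in Ccnb2. Between the array sets, 26 of the 45 genes read lower in arrays 1 and 2 than in arrays 3 to 5 (Rac2-/- array 5 set aside), or 57.8% against 50.4% of all features tested, with a median of -0.15 against -0.0034. WT array 2 was the lowest for the group as a whole, with 35 of the 45 genes below the WT mean.

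Promoter elements can be set beside the array 5 values. Of the 36 genes with both a promoter and a tested feature, 25 held the CCAAT box and the homology region together, and their excess had a median of 2.51 (range -0.14 to 3.92). The 3 with the homology region alone had a median of 2.93, the 2 with the CCAAT box alone 2.35, and the 6 with neither element 2.04 (-0.07 to 3.86). The last 6 included Nusap1, with an excess of 3.86, as well as Clip1. Across all 13312 named genes with a promoter, the 926 with both elements had a median excess of 0.02, against -0.01 for the 6594 with neither.

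Other genes of mitosis were high in the same array. Of 83 other mitotic genes, 77 were tested. Of these, 74 had the higher mean in Rac2-/-, against 49.9% of all features, and 57 without array 5, against 50.1%. Among the 77, 1 passed, against 1.90%, and it was Pttg1, securin, the inhibitor of separase. Pttg1 ran the other way, with 9.52, 9.70, 9.61, 9.61 and 9.55 in WT and 8.39, 8.29, 8.38, 8.28 and 8.85 in Rac2-/-. Every Rac2-/- array was below every WT array, array 5 included, although array 5 was again the highest of its group. The difference was 1.16 ± 0.11 (limma adjusted p = 0.00082), and 1.26 ± 0.07 without array 5 (adjusted p = 9.43e-05).

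The anaphase-promoting complex and cohesin subunits, many of which work outside mitosis too, did not share the excess of array 5. None of 22 passed the test (0 adjusted, against 1.90% of all features, and 3 at an unadjusted p under 0.05 in limma, against 10.4%). Their median excess was 0.14. The exception was Esco2, the cohesin acetyltransferase of S phase, at 3.11. Smc3 (-0.37, adjusted p = 0.375) and Anapc13 (-0.27, adjusted p = 0.431) had the smallest p-values. Among 24 transcription regulators of the cell cycle, 0 passed with all arrays (2 at an unadjusted p under 0.05 in limma, against 10.4% of all features). Rbbp4 (-0.25, adjusted p = 0.336) and Tfdp2 (-0.68, adjusted p = 0.386) were first. Foxm1, the forkhead factor of late cycle genes, read 8.97 in array 5 and 5.50 to 6.59 elsewhere. Without array 5, 1 of the 24 passed, against 1.76% of all features. It was Rbl1, the pocket protein p107 (0.57, higher in WT, limma adjusted p = 0.0104). Of 43 DNA replication genes, array 5 was highest for 36, against 11.0% of the features tested, with a median excess of 1.10. The mean was higher in Rac2-/- for 34 of the 43 with all arrays, against 49.9% of all features. Without array 5 it was higher for 20, against 50.1%, with a median difference of 0.017. With all arrays 0 of them passed (2 at an unadjusted p under 0.05 in limma, against 10.4%). Tk1 (-0.72, adjusted p = 0.289) and Rrm1 (-0.69, adjusted p = 0.466) were first.

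**Figure D5:**
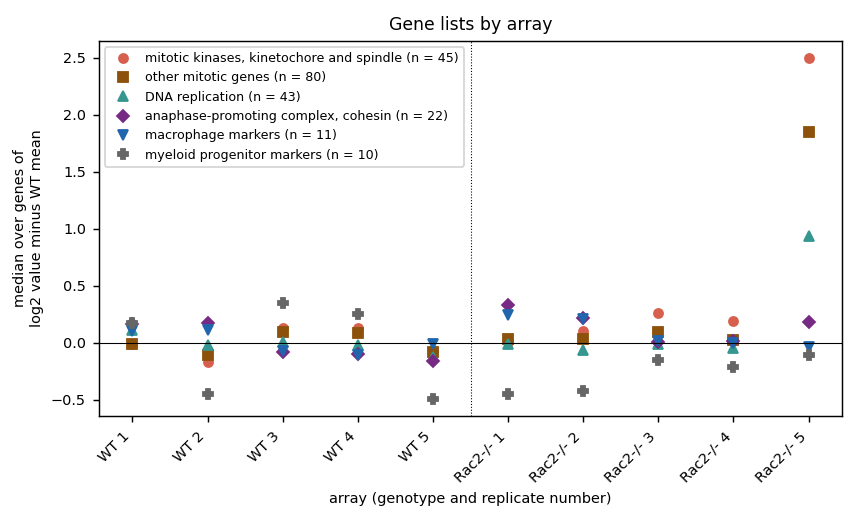
Median over the genes of each list of the log2 value minus the WT mean, in each of the 10 arrays. In Rac2-/- array 5 the mitotic kinase, kinetochore and spindle genes stand at 2.50, the other mitotic genes and the DNA replication genes lie between them and 0, and the macrophage and myeloid progenitor markers stay near 0.

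Markers of the cells that such a culture can hold showed no like excess in array 5. The mean log2 value of 11 macrophage markers was 11.99 to 12.15 in WT, 12.06 to 12.26 in Rac2-/- arrays 1 to 4 and 11.92 in array 5, below both ranges. That of 10 myeloid progenitor markers was 6.07 to 7.06, 5.99 to 6.51 and 6.70. Array 5 thus lay above Rac2-/- arrays 1 to 4 and inside the WT range for these markers. Of the 10, 1 was highest in array 5, against 11.0% of the features tested: Cd34, at 7.05 against 5.32 to 5.94 elsewhere. Over the 10 genes the excess of array 5 over the median of Rac2-/- arrays 1 to 4 had a median of 0.13, from -0.17 to 1.62. Kit, a receptor of early progenitors, read 5.70 in array 5 and 5.46 to 5.99 in the other arrays. Neutrophil markers (9 genes) had a mean of 8.01 in array 5 and 7.19 to 9.24 in WT, and lymphoid markers (6) 4.84 and 4.79 to 5.04. Some single markers read low in array 5. Against the median of Rac2-/- arrays 1 to 4, the neutrophil genes had a median of -0.48, from -1.29 to 0.58. The 11 macrophage genes had a median of -0.11, from -0.95 to 0.22. The means of erythroid (5), fibroblast (10) and mast cell and basophil markers (9) in array 5, at 6.32, 6.31 and 5.06, were below their WT ranges of 6.36 to 6.72, 6.53 to 6.90 and 5.19 to 5.70. They lay inside the ranges of Rac2-/- arrays 1 to 4, which were 6.27 to 6.84, 6.09 to 6.66 and 5.01 to 5.17. The mast cell enzyme gene Hdc was higher in WT (0.49 ± 0.09, limma adjusted p = 0.0185). The part of culture composition in the values of array 5 was not tested.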

How the data were processed

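Total RNA of 10 BMDM cultures was read on 10 Affymetrix mouse whole-transcript arrays. The authors deposited log2 expression after RMA, the tool named in their processing notes and methods, for 34760 features, with medians of 6.07 to 6.14 per array. The log base was inferred from the range of the values. The methods also name ComBat for a batch they do not name. The deposited values still separate arrays 1 and 2 from 3 to 5, so its use on them is not known. A cut to 27031 genes, expressed in at least 4 samples, is described without its level. Here features were ordered by their fourth-highest value and the first 27031 (down to 4.73) were tested.

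Genes were named from the platform annotation through current symbols, from features with 1 symbol (21640; 1321 had several and 11799 none). For a gene with several features, that with the highest mean was used. WT minus Rac2-/- was fitted with limma 3.58.1 in R 4.3.3 (lmFit and eBayes), with Benjamini-Hochberg adjustment over all features tested and a threshold of 0.05, with and without Rac2-/- array 5. Arrays of the same number shared deviations from their group means (r = 0.493 to 0.716) no more than arrays of other numbers in the same set (0.476 to 0.724). Across sets r was -0.716 to -0.515. The number was also used as a block. Neither the labels nor the values show a pairing by number beyond the array sets. Values in every array are given for genes past the test in the fits of all arrays, without Rac2-/- array 5 or with the block, for the gene of smallest p and of largest difference in each role, and for Mki67 and Cdk1. From other lists the genes past the test, or the 2 of smallest p, are named. The genes, lists, roles and tests were chosen with earlier results of these data known. The fits were tested on simulated data. Alternatives covered the block, array sets, filter, variance model, array weights, normalization, several features of a gene and each array left out.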

Additional observations from a re-analysis of the deposited data

Results flagged for a closer look

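Rac2-/- array 5 stood far from the other 4 Rac2-/- arrays in 33 of the 45 genes. The measure was the gap to its nearest neighbour as a share of the group's range (0.725 to 0.942, with a cut at 0.71). That array had been singled out beforehand, so the count describes 1 culture and is not a test. WT and Rac2-/- arrays were examined for every gene, 90 groups in all, and 1 WT group was found. The genes share the same cultures, so these counts are not independent of each other.

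Among the entry genes array 5 read 11.23 for Ccna2, 11.64 for Ccnb2, 7.11 for Cdc25c and 9.12 for Aurka. Among the checkpoint and anaphase genes it read 9.07 for Cdc20, 9.41 for Bub1b, 10.78 for Mad2l1, 7.53 for Ttk and 7.64 for Espl1. At the centromere and kinetochore it read 9.93 for Cenpa, 8.41 for Cenpe, 7.77 for Cenpf, 7.12 for Cenpk, 8.09 for Ndc80, 8.39 for Spc25 and 8.26 for Dsn1. In the passenger complex it read 8.01 for Birc5 and 8.54 for Cdca8. Among the motors and spindle proteins it read 10.16 for Kif11, 8.96 for Kif2c, 7.21 for Kif4 and 10.13 for Nusap1. In cytokinesis it read 9.58 for Kif20a, 10.11 for Kif23, 9.35 for Prc1, 10.02 for Ect2, 9.91 for Racgap1 and 9.43 for Anln. Among the chromosome genes it read 10.51 for Mki67, 10.32 for Top2a, 9.16 for Smc2, 8.65 for Ncapg and 9.41 for Ncapd2. The WT group found was that of Cdca8, where WT array 3 read 6.64 against 6.26 to 6.34 in the other WT arrays.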

How the results depend on the processing

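The higher mean in Rac2-/- kept its direction in all 23 alternatives, with a median difference between -0.89 (the fit to arrays 3 to 5) and -0.14 (the fit that omits Rac2-/- array 5). With each array left out in turn it was between -0.76 and -0.14. Most alternatives hold Rac2-/- array 5, and several cannot change the mean difference. The fits without that array gave -0.14, -0.17 with the array sets as a term, and -0.20 within arrays 1 and 2. The number of genes past the test rested on few arrays and on the model. Of the 44 genes, 1 passed with all arrays (beside 1.90% of all features), 2 with the replicate block (6.35%), 2 with a term for the array sets (9.34%), 2 within arrays 3 to 5 (5.50%) and 2 with array weights (6.70%). A count of 2 in 44 is a share below each of those 4 backgrounds. The count was 0 within arrays 1 and 2, with no filter, with a trended robust variance and with arrays 3 and 4 averaged, the last chosen after seeing the data. With each array left out in turn it was 0 to 1, the single gene being Clasp2 without Rac2-/- array 1 and Cenpa without Rac2-/- array 5. Clasp2 was past the threshold in 10 of 23 alternatives. Without Rac2-/- array 5 the count was 1 (1.76% of all features), and it was 7 with the array sets as a term (9.42%). It was 4 with the replicate block. The share of all features in that fit is not given, so the 4 is not read as a result about these genes. The count was 0 with no filter, with a trended robust variance or with arrays 3 and 4 averaged. Removing the filter tests more features; the cause of the other shifts was not tested. Of the 166 genes tested in the pathway lists beside them, 1 passed with all arrays (1.90% of all features), 4 with the replicate block (6.35%) and 4 with the array sets (9.34%). Their count was 2 within arrays 3 to 5 (5.50%), 2 with array weights (6.70%) and 0 within arrays 1 and 2 (0.00740%). It was 1 to 2 with each array left out (0.906% to 2.31%). Without Rac2-/- array 5 and with the array sets it was 19, where 9.42% of all features passed. The interaction count was 0 in the 13 alternatives run for it, which does not show that the genotype difference was alike in both array sets. With 5 arrays a group and 1 array far from the rest, the number of arrays limits the precision, and the SE of most genes is set by that array.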

Other observations

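Among all named genes with a promoter in the table, 151 read at least 1 log2 unit higher in Rac2-/- array 5 than in any other array. Of these, 117 were not among the 46 genes chosen here, but still held other mitotic and DNA replication genes. The CCAAT box and the homology region letters stood together in the promoters of 33 of the 117 (28.2%), against 6.96% of all 13312 such genes, and the homology region letters in 47 (40.2%), against 17.1%. With the genes of the 4 pathway lists set aside as well, 64 were left, of which 11 held both (17.2%) and 19 the homology region letters (29.7%). The lists need not hold every gene of the cell cycle, so the 64 can still include such genes. The genes were chosen by their values in that array, so these shares are descriptions with no test. Other mitotic genes with a large excess in array 5 were Hmmr, a spindle and hyaluronan receptor protein, at 3.58 log2 units, Mastl, the Greatwall kinase, at 3.17, and Knl1, a kinetochore scaffold, at 2.98.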
